A study of Mus musculus with 8 samples.

Results

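Igf1, the insulin-like growth factor 1 gene, was followed together with genes for its binding proteins (Igfbp4, Igfbp7) and for receptors of the insulin and insulin-like growth factor family (Igf1r, Insr, Igf2r) in mouse blood monocytes sorted by subset and by whether the cells carried latex beads. The 6 genes were selected by symbol, with earlier results of these arrays known, and they are 6 of 18193 genes measured. They hold 23 of the 34945 probe sets annotated to exactly 1 gene symbol. For each gene the values are those of its brightest probe set, judged by the mean of all 8 arrays, unless another is named; that choice rests on the level over all arrays and not on a difference between groups. The chosen and the next probe set lay at 7.02 and 6.01 log2 units for Igf1, 7.60 and 7.56 for Igfbp4, 7.41 and 5.65 for Igfbp7, 8.15 and 6.81 for Igf1r, 8.28 and 6.17 for Insr, and 7.16 and 6.95 for Igf2r.

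Insulin-like growth factors are secreted peptides that signal through the receptor tyrosine kinase encoded by Igf1r, while insulin signals mainly through its relative encoded by Insr. Binding proteins hold the peptides in the extracellular fluid and set how much reaches the receptors. The product of Igf2r differs from these receptors: it has no kinase, removes insulin-like growth factor 2 from the cell surface, and as the cation-independent mannose 6-phosphate receptor carries newly made hydrolases to lysosomes. In tissues, macrophages are a known local source of Igf1.

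The mice were male C57BL/6 and carried no labelled transgene or mutation. Fluorescent beads of 1 µm were given intravenously, and monocytes were sorted from blood 4 days later into 4 groups of 2 arrays: Gr1lo (nonclassical, low in Ly-6C) with beads, Gr1lo without beads, Gr1hi (classical, high in Ly-6C) with beads and Gr1hi without beads. Cells without beads therefore also came from mice that had been given beads. The descriptions conflict on the phagocyte-depleting clodronate liposomes. By the design text depletion came 3 days before the beads and no subset is named, while by the treatment protocol it served for Gr1hi cells alone; on the second reading subset and pretreatment cannot be told apart. Neither age nor how many mice stand behind an array was stated, and p-values then measure only the spread between arrays, which may be technical.

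All values are log2 expression after the authors' RMA normalization, and the small number of arrays limits their precision. Array medians lay between 6.12 and 6.19, and arrays of 1 group correlated at 0.9935 to 0.9963. A level of 6.98, the 95th percentile of 114 genes that blood cells should lack (olfactory and taste receptors, vomeronasal receptors, keratin-associated proteins), was taken as background. The subsets matched their labels: the mean of 6 classical markers was 8.12 to 10.96 on Gr1lo arrays and 12.54 to 12.88 on Gr1hi arrays, and that of 10 nonclassical markers was 12.29 to 12.56 on Gr1lo arrays and 8.89 to 9.47 on Gr1hi arrays. The arrays of Gr1lo cells without beads stood apart from each other, with classical markers at 10.96 on array 1 and 10.12 on array 2 and 12 tissue macrophage markers at 8.51 and 6.72. The bacterial poly-A transcripts added during labelling averaged 10.44 and 10.45 on the Gr1lo arrays with beads against 9.27 and 8.68 without, and 9.45 and 9.86 on the Gr1hi arrays with beads against 7.75 and 8.11 without. The part of the labelling controls in the bead-associated differences given here was not tested.

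The levels of the 6 genes on every array are plotted first, and their differences follow by role.

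**Figure D1:**
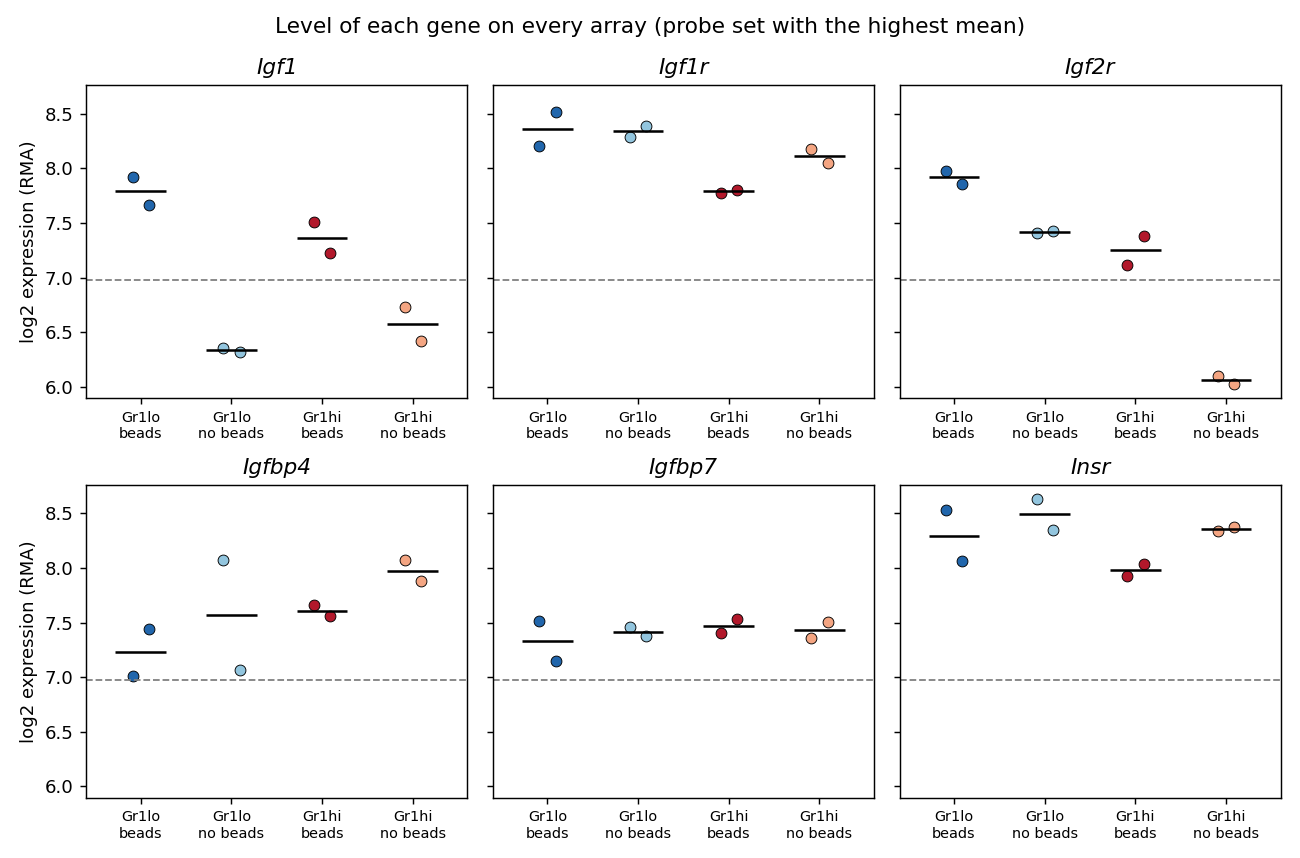
Log2 expression (RMA) of the 6 genes in the 4 groups; each point is 1 array, each bar the mean of 2 arrays, and the dashed line is the background level of 6.98. Igf1 is above the line in bead-carrying cells of both subsets and below it in bead-free cells, Igf2r is below it in Gr1hi cells without beads, and the other 4 genes are above it in every group; heights of different genes come from different probe sets and cannot be set against each other.

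Igf1 was above background only in the groups of bead-carrying cells. It read 7.92 and 7.67 on the Gr1lo arrays with beads and 6.36 and 6.32 on the Gr1lo arrays without beads. In Gr1hi cells it read 7.50 and 7.23 with beads and 6.73 and 6.42 without. Every bead-carrying array was thus above every bead-free array, in both subsets. In sorted bulk cells, more cells of a type and more RNA per cell cannot be told apart. From low to high the groups ran Gr1lo without beads, Gr1hi without beads, Gr1hi with beads and Gr1lo with beads, and no neighbours in this order overlapped on single arrays.

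Igf1 and Igf2r were the only members called in a comparison of bead states, and the bases before a listed start of each are shown for that reason, read in the direction of transcription from RefSeq on GRCm38.p6, where 5 of the 6 genes matched a promoter entry by symbol. Igf1 lies on chr10:87858265-87937047 (plus strand) and Igf2r on chr17:12682406-12769706 (minus strand). The Igf1 window, chr10:87860861-87861110, starts inside the annotated gene and so belongs to 1 of its starts, and the Igf2r window is chr17:12769707-12769956. Capitals mark matches, on either strand, to 4 short motifs: CACGTG (the E-box read by MiT/TFE factors, among others), GAGGAA (a core of PU.1 sites), CCGCCC (a GC box) and TGTTTAC (a FOXO core).
Igf1: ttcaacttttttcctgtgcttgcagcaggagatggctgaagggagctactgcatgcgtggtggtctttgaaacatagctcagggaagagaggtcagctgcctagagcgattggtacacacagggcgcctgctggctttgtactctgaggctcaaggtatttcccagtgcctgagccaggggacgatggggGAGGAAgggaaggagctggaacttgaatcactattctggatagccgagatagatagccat
Igf2r: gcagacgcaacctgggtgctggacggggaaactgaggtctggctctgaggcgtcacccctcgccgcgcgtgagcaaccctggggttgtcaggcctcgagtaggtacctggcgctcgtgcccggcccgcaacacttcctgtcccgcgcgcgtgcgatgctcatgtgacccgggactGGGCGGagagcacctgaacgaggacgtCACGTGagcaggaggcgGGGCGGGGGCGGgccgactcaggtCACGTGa
The Igf2r window held 2 matches to CACGTG and 3 to CCGCCC, all 3 as the reverse complement GGGCGG, and a pair of these lie side by side. The Igf1 window held 1 match to GAGGAA and none to the other 3 motifs. Of 32851 promoter windows of the same 250 bases, 6.02% held CACGTG, 23.25% GAGGAA, 32.74% CCGCCC and 3.17% TGTTTAC. A match is a run of letters and no measured site. The other genes lie on chr11:99040005-99052655 (Igfbp4), chr5:77349240-77408045 (Igfbp7), chr7:67952257-68233668 (Igf1r) and chr8:3150922-3279649 (Insr).

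Igf1 was higher in Gr1lo cells with beads, at 7.80 ± 0.18 (SD, n = 2) against 6.34 ± 0.03 without. The difference was 1.46 ± 0.14 log2 units (± SE, limma adjusted p = 0.00698). No fold is given, since the level without beads was below background. Of all genes, 0.225% were called in this comparison, and 0.0824% were called higher. In Gr1hi cells Igf1 averaged 7.36 ± 0.20 with beads and 6.57 ± 0.22 without. That difference, 0.79 ± 0.14, had a 95% interval of 0.47 to 1.11 and did not pass correction over all genes (adjusted p = 0.0872), in a comparison that called 0.247% of genes. It was called under 3 of 16 alternative settings (adjusted p = 0.0312 to 0.437 over all 16). The arrays did not overlap in either subset, as for 23.3% of all genes higher with beads in Gr1lo cells and 19.2% in Gr1hi cells. The bead-associated difference was 0.66 ± 0.20 larger in Gr1lo cells, and the test of that difference did not pass (adjusted p = 0.558; 0.044% of genes were called). The Gr1lo difference was known when the gene was selected and is no independent evidence. Without array 1 of the Gr1lo group with beads it was 1.33 and the call was lost (adjusted p = 0.0636).

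The other 3 probe sets of Igf1 had means of 5.58 to 6.01, all below background, and their group means ran in the same order as those of the chosen one. For all 3 the bead-carrying groups overlapped each other, as did the bead-free groups. Their differences with beads were 0.59 to 1.28 in Gr1lo cells and 0.52 to 0.78 in Gr1hi cells. In each subset, both bead-carrying arrays were above both bead-free arrays for all 3 of them. Probe sets of a gene share the RNA of an array and are no replicates of it.

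Between the subsets, Igf1 did not pass the test. Among bead-carrying cells it was 0.43 ± 0.14 higher in Gr1lo than in Gr1hi cells (interval 0.11 to 0.75; adjusted p = 0.0537). Among bead-free cells, where both means were below background, the difference between Gr1lo and Gr1hi was -0.23 ± 0.14 (adjusted p = 0.280).

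The 5 genes whose pattern over the 8 arrays was most like that of Igf1, among 1234 candidates that varied by at least 1 log2 unit between groups, were Slc40a1 (Pearson r = 0.91), Id3 (0.90), Cbr2 (0.89), Spic (0.88) and Rasgef1b (0.88). These correlations describe 8 arrays in 4 groups and carry no test; Slc40a1 and Spic are also among the tissue macrophage markers. Slc40a1 (ferroportin, the iron exporter) read 9.51 and 9.08 on Gr1lo arrays with beads against 6.24 and 6.39 without, and 9.11 and 9.06 on Gr1hi arrays with beads against 7.78 and 7.98 without.

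Because tissue macrophages express Igf1, the 12 tissue macrophage markers were set beside it. They averaged 7.95 and 7.65 on Gr1lo arrays with beads against 8.51 and 6.72 without, and 7.75 and 7.77 on Gr1hi arrays with beads against 6.95 and 7.16 without. Single markers went different ways. In Gr1lo cells 3 of the 12 (Slc40a1, Spic and Vcam1) were higher with beads without overlap, 3 were lower and 6 overlapped. Spic, a transcription factor of iron-recycling macrophages, read 8.98 and 8.70 on Gr1lo arrays with beads against 7.73 and 7.79 without. In Gr1hi cells 8 were higher, Slc40a1 and Spic among them, and 2 lower. Over all genes 23.3% were higher without overlap in Gr1lo cells, and in Gr1hi cells 19.2% were higher and 25% lower. Some differed widely between the bead-free Gr1lo arrays, where the complement gene C1qa read 11.37 and 8.16 and the macrophage scavenger gene Cd5l 10.99 and 6.19. Without array 1 of that bead-free group the bead-associated difference of Igf1 in Gr1lo cells was 1.47 and was called (limma adjusted p = 0.0279). Of the 12 markers, Vcam1, Cd163, Timd4 and Marco had no group mean above background, and 7 were above it in each group with beads.

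Markers of other cells differed with bead state as well. Classical markers averaged 8.26 and 8.12 on Gr1lo arrays with beads against 10.96 and 10.12 without, and 12.54 and 12.55 on Gr1hi arrays with beads against 12.85 and 12.88 without. All 6 were lower with beads, without overlap, in both subsets. In Gr1hi cells that held for 25% of all genes. In Gr1lo cells 42.7% of all genes did not overlap, in either direction. Cd209a, a dendritic cell gene, read 6.84 and 6.69 on Gr1lo arrays with beads against 10.06 and 9.73 without. Of 8 dendritic markers, 3 were lower with beads and 2 higher in Gr1lo cells, and all 8 overlapped in Gr1hi cells. Nonclassical markers averaged 9.32 and 9.47 on Gr1hi arrays with beads against 8.89 and 9.04 without. On Gr1lo arrays they averaged 12.46 and 12.56 with beads against 12.29 and 12.55 without. Of these 10, 6 were higher and 1 lower with beads in Gr1hi cells, and 3 higher and 1 lower in Gr1lo cells, without overlap. The part of any of these cells or of tissue macrophages in the Igf1 and Igf2r differences was not tested.

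**Figure D2:**
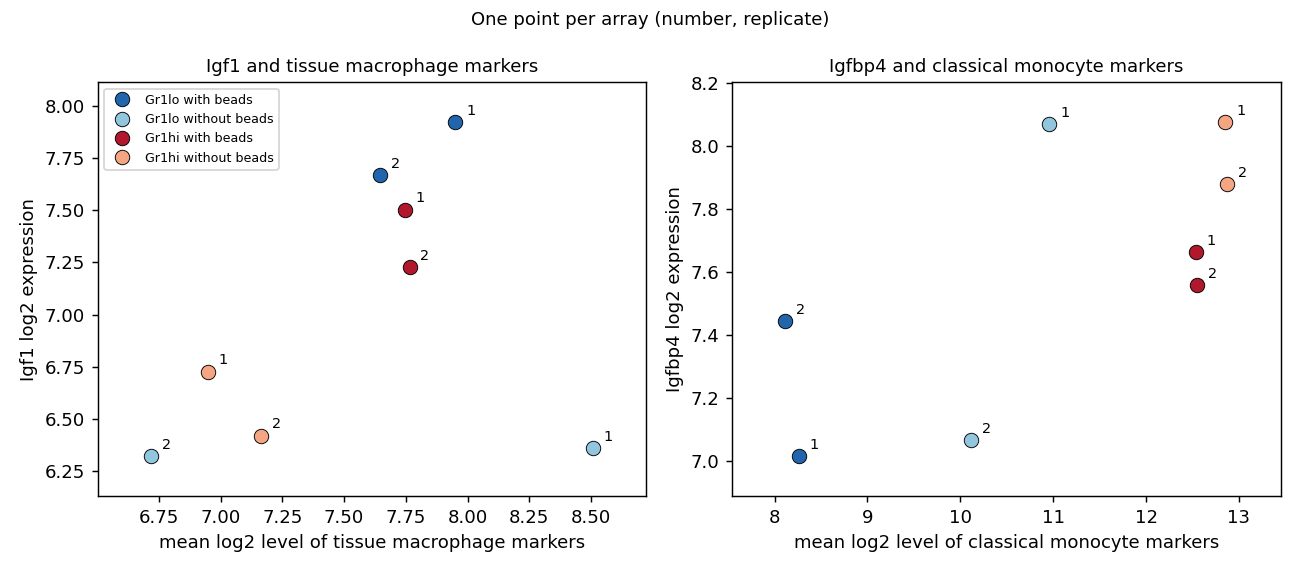
Each point is 1 array, numbered by replicate and coloured by group; the left panel sets Igf1 (log2 expression) against the mean log2 level of 12 tissue macrophage markers and the right panel Igfbp4 against 6 classical monocyte markers. Array 1 of the Gr1lo group without beads has the highest macrophage marker mean, 8.51, with Igf1 at 6.36, and both its classical marker mean and its Igfbp4 value are above those of array 2 of that group.

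Neither binding protein gene passed a test in any comparison. Igfbp4, whose product holds insulin-like growth factors until the protease encoded by Pappa cleaves it, read 7.01 and 7.44 on Gr1lo arrays with beads and 8.07 and 7.07 on Gr1lo arrays without. On Gr1hi arrays it read 7.66 and 7.56 with beads and 8.07 and 7.88 without. The bead-free Gr1lo arrays lay further apart than any other pair of replicates for this gene. Igfbp4 differed with beads by -0.34 ± 0.28 in Gr1lo cells (limma adjusted p = 0.635) and by -0.37 ± 0.28 in Gr1hi cells (adjusted p = 0.730). Gr1lo minus Gr1hi was -0.38 with beads (adjusted p = 0.383) and -0.41 without (adjusted p = 0.347).

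Leaving out either bead-free Gr1lo array moved Igfbp4. Without array 1, Gr1lo minus Gr1hi in bead-free cells was -0.91 and was called (limma adjusted p = 0.00899), and without array 2 it was 0.09 (adjusted p = 0.750). The difference with beads in Gr1lo cells was 0.16 without array 1 (adjusted p = 0.859) and -0.84 without array 2 (adjusted p = 0.0664). Classical markers averaged 10.96 on array 1 and 10.12 on array 2, and their part in the Igfbp4 values was not tested. All 5 other probe sets of Igfbp4 were lower in Gr1lo than in Gr1hi cells, by 0.12 to 0.66 with beads, where the arrays of none of the 5 overlapped, and by 0.03 to 0.40 without. The chosen probe set did not overlap with beads either, as for 34.6% of all genes in that direction. With beads against without, 2 of those 5 were higher and 3 lower in Gr1hi cells. The genes most like Igfbp4 over the 8 arrays were Ier3 (Pearson r = 0.90), Slpi (0.88), Thbs1 (0.87), Cysltr1 (0.86) and F5 (0.85).

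Igfbp7 encodes a secreted protein that is related to the binding proteins and is made in quantity by endothelial and stromal cells. Its arrays read 7.52 and 7.15 in Gr1lo cells with beads, 7.46 and 7.38 in Gr1lo cells without, 7.41 and 7.54 in Gr1hi cells with beads, and 7.36 and 7.50 in Gr1hi cells without. All 4 groups overlapped their neighbours in level. The differences with beads were -0.08 in Gr1lo cells (interval -0.37 to 0.21) and 0.04 in Gr1hi cells (interval -0.25 to 0.33). Its 3 probe sets had means of 7.41, 5.65 and 4.95, and only the first was above background. Among 1235 candidates that varied by at least 1 log2 unit between groups, the most alike, Ocstamp, reached r = 0.79. Igfbp7 itself varied less than that, and genes as flat were not compared. Of 8 endothelial markers Cdh5, Tek, Tie1, Emcn, Esam and Cldn5 were not above background in any group. Kdr was above it in every group and Vwf in the Gr1lo groups alone. Vwf read 8.03 and 8.08 on Gr1lo arrays with beads against 7.47 and 7.66 without. In Gr1lo cells 3 of the 8 were higher with beads without overlap, none was lower and 5 overlapped. Of all genes, 23.3% were higher without overlap there. Of 8 fibroblast and stromal markers Col1a1, Col3a1, Dcn, Lum, Pdgfra, Pdgfrb and Cxcl12 were not above background, while Col1a2 was in every group. The part of these cells in the Igfbp7 values was not tested.

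Igf1r, the signalling receptor for insulin-like growth factor 1, was higher in Gr1lo than in Gr1hi cells where the cells carried beads. Its arrays read 8.21 and 8.52 in Gr1lo cells with beads and 8.29 and 8.39 in Gr1lo cells without. In Gr1hi cells they read 7.77 and 7.80 with beads and 8.18 and 8.05 without. The Gr1hi arrays with beads were thus the lowest, and the Gr1lo groups overlapped. Among bead-carrying cells Gr1lo averaged 8.36 ± 0.22 and Gr1hi 7.79 ± 0.02, a difference of 0.57 ± 0.11 (limma adjusted p = 0.00612), in a comparison that called 26.5% of all genes and 11.8% as higher. Among bead-free cells the difference was 0.22 ± 0.11 (adjusted p = 0.209), in a comparison that called 23.6%.

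With beads against without, Igf1r differed by 0.02 ± 0.11 in Gr1lo cells (interval -0.24 to 0.28) and by -0.33 ± 0.11 in Gr1hi cells (interval -0.59 to -0.07; adjusted p = 0.392). The Gr1hi arrays did not overlap, as for 25% of all genes in that direction. The subsets' bead-associated differences differed by 0.35 ± 0.16 (adjusted p = 0.645). The other 4 probe sets of Igf1r, with means of 5.47 to 6.81, were below background. Between bead-carrying Gr1lo and Gr1hi cells 2 of them were higher and 2 lower, and with all 5 averaged the difference was 0.09 and lost its call (adjusted p = 0.425). Closest to Igf1r in pattern were Lmo4 (Pearson r = 0.98), Zfp608 (0.95) and Esrp2 (0.95).

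Insr, the insulin receptor, showed no called difference. It read 8.53 and 8.06 on Gr1lo arrays with beads and 8.63 and 8.35 on Gr1lo arrays without beads, and 7.93 and 8.03 on Gr1hi arrays with beads and 8.34 and 8.38 on Gr1hi arrays without. As for Igf1r, the Gr1hi arrays with beads were lowest. Insr differed with beads by -0.37 ± 0.16 in Gr1hi cells (interval -0.73 to -0.02; limma adjusted p = 0.474) and by -0.20 ± 0.16 in Gr1lo cells (adjusted p = 0.621). Gr1lo exceeded Gr1hi by 0.31 ± 0.16 with beads (adjusted p = 0.186) and by 0.14 ± 0.16 without (adjusted p = 0.583). Without array 2 of the Gr1lo group with beads, Gr1lo minus Gr1hi among bead-carrying cells was 0.55, and without array 1 it was 0.08. The other 2 probe sets, at means of 6.17 and 4.19, were below background. With beads in Gr1hi cells the first of these differed by -0.02, with overlap. The second was 0.18 higher, without overlap, the opposite direction to the chosen probe set. Stat4 was the most like it of 1235 candidates that varied by at least 1 log2 unit between groups (r = 0.87).

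Igf2r had the most calls of the 6 genes, 3 of 5 comparisons, all from 1 of its 2 probe sets. It read 7.98 and 7.86 on Gr1lo arrays with beads and 7.40 and 7.43 on Gr1lo arrays without. On Gr1hi arrays it read 7.11 and 7.38 with beads and 6.10 and 6.03 without, the last below background. The groups ran from Gr1hi without beads through Gr1hi with beads and Gr1lo without beads to Gr1lo with beads, with no overlap between neighbours.

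Igf2r was higher in Gr1hi cells with beads, at 7.25 ± 0.19 (SD, n = 2) against 6.06 ± 0.05 without, the latter below background. The difference was 1.19 ± 0.11 (limma adjusted p = 0.0134). Igf2r was the 1 member of 6 called there, where 0.148% of all genes were called higher. This difference, too, was known when the gene was selected. Its adjusted p lay between 0.0593 and 0.123 when any 1 of the 4 Gr1hi arrays was left out, with differences of 1.05 to 1.32, and settings of that kind called 0 to 6 genes in all. In Gr1lo cells Igf2r averaged 7.92 ± 0.08 with beads and 7.42 ± 0.02 without, a difference of 0.50 ± 0.11 (interval 0.26 to 0.74) that did not pass (adjusted p = 0.135). The Gr1lo difference was 0.69 smaller than the Gr1hi difference, and this contrast was not called (-0.69 ± 0.15; adjusted p = 0.485).

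Igf2r was also higher in Gr1lo than in Gr1hi cells. The difference was 1.35 ± 0.11 without beads (limma adjusted p = 6.18e-05; 0.86 with both probe sets averaged, also called) and 0.67 ± 0.11 with beads (adjusted p = 0.00188). The first of these and the Gr1hi bead comparison share the Gr1hi arrays without beads, the lowest of all for this gene. In the same comparisons 10% and 11.8% of all genes were called higher in Gr1lo cells.

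The second probe set of Igf2r gave a flatter picture, at a mean of 6.95, just under background. It read 7.19 and 7.31 on Gr1lo arrays with beads against 6.94 and 7.18 without, and 6.54 and 7.03 on Gr1hi arrays with beads against 6.49 and 6.92 without. Its group means ran in the same order as those of the first. With every probe set tested, its difference with beads was 0.19 ± 0.19 in Gr1lo cells (limma adjusted p = 0.720) and 0.08 ± 0.19 in Gr1hi cells (interval -0.35 to 0.50; adjusted p = 0.941). Gr1lo minus Gr1hi was 0.47 with beads (adjusted p = 0.114) and 0.36 without (adjusted p = 0.230). The first probe set exceeded the second by 0.78 and 0.55 on Gr1lo arrays with beads, by 0.46 and 0.25 on Gr1lo arrays without, and by 0.58 and 0.35 on Gr1hi arrays with beads. On Gr1hi arrays without beads alone it was below the second, by -0.40 and -0.89. Averaged over both probe sets, Igf2r differed with beads by 0.63 in Gr1hi cells and lost its call (adjusted p = 0.133). A further probe set, annotated to Igf2r and to the antisense gene Airn that overlaps it, was left out and lay at 4.65 to 5.49 on all arrays.

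**Figure D3:**
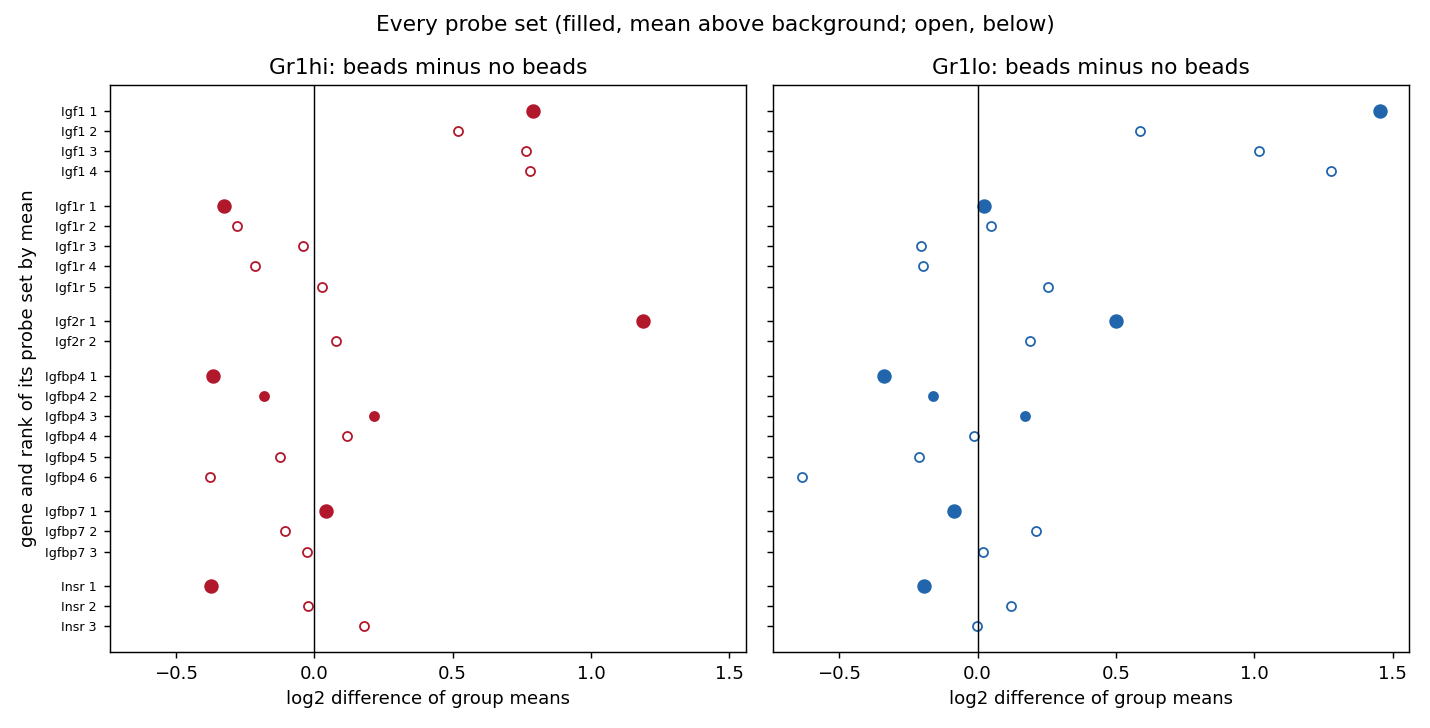
Log2 difference of group means, beads minus no beads, for each of the 23 probe sets in Gr1hi (left) and Gr1lo cells (right), with each gene's probe sets ranked by mean level; large points are the chosen probe sets, filled points have a mean above the background of 6.98. All 4 Igf1 probe sets lie right of 0 in both panels, whereas the second Igf2r probe set lies at 0.08 in Gr1hi cells against 1.19 for the first.

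Over the 8 arrays the pattern of Igf2r was most like those of Nr1h3 (Pearson r = 0.98), Tet2 (0.97), Calhm6 (0.96), Map3k8 (0.95) and Acp2 (0.95). Nr1h3, an oxysterol receptor, averaged 8.67 in Gr1lo cells with beads and 8.07 without, and 7.72 in Gr1hi cells with beads and 6.74 without.

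Counted over the 6 genes, 1 was called with beads in Gr1lo cells (Igf1) and 1 in Gr1hi cells (Igf2r), against 0.225% and 0.247% of all genes. None was called for the difference of the bead-associated differences between subsets, against 0.044%. Between bead-free subsets 1 was called (Igf2r) and between bead-carrying subsets 2 (Igf1r and Igf2r), against 23.6% and 26.5% of all genes. For the difference of the bead-associated differences 2 of the 6, Igf1 and Igf2r, had an unadjusted limma p under 0.05, as did 1427 of all genes (7.84%). All 5 calls were upward. The arrays of the groups did not overlap for 2 of the 6 with beads in Gr1lo cells, where that held for 42.7% of all genes, and for 5 of the 6 in Gr1hi cells (44.2%). Between subsets they did not overlap for 5 of the 6 with beads (61.4%) and for 3 without (62%). The median of the 6 was -0.03 in Gr1lo cells and -0.14 in Gr1hi cells for beads, against 0.02 and -0.02 over all genes. Between subsets it was 0.37 with beads and 0.06 without, against -0.03 and -0.07 over all genes.

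**Figure D4:**
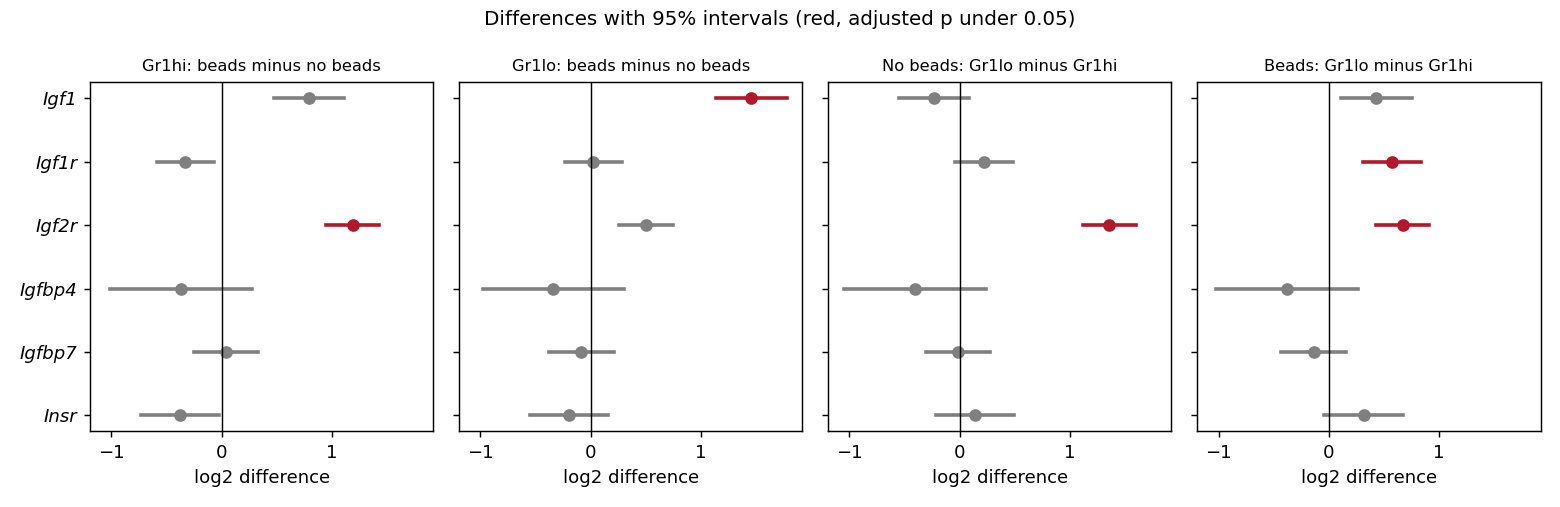
Log2 differences of the 6 genes with 95% intervals from limma in 4 comparisons; red marks an adjusted p under 0.05 over all genes. Igf1 is red for beads in Gr1lo cells, Igf2r for beads in Gr1hi cells and in both subset comparisons, and Igf1r between bead-carrying subsets.

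The rest of the pathway was described from 6 lists, which held 153 measured genes beside these 6. With beads, none of them was called in Gr1lo cells by limma, where 17 had an unadjusted p under 0.05, and 1 in Gr1hi cells, where 18 did. These are 11.1% and 11.8% of the 153, against 13.2% and 9.93% of all genes. That gene was Gga2, which encodes an adaptor that loads mannose 6-phosphate receptors into carriers at the Golgi. Gga2 read 8.16 and 8.29 on Gr1lo arrays with beads and 7.84 and 7.80 without, and 8.87 and 8.98 on Gr1hi arrays with beads and 8.09 and 8.12 without. With beads it was higher by 0.82 ± 0.09 in Gr1hi cells (limma adjusted p = 0.0177). In Gr1lo cells it differed by 0.41 ± 0.09 (adjusted p = 0.135). As for Igf2r, leaving out any 1 Gr1hi array ended the Gr1hi call. M6pr, the other mannose 6-phosphate receptor, differed by -0.00 in Gr1lo cells and -0.05 in Gr1hi cells. Among 24 other ligands, binding proteins and their proteases, of which 6 had a mean above background, Igf2 averaged 6.43 with beads and 6.42 without in Gr1lo cells, and 6.43 and 6.25 in Gr1hi cells, all below background.

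Between subsets 67 of the 153 were called with beads, 33 higher and 34 lower in Gr1lo cells, and 54 without beads, 27 each way. These were 43.8% and 35.3%, against 26.5% and 23.6% of all genes. Of 33 genes of mannose 6-phosphate tagging and Igf2r partners, 1 was higher and 21 lower in Gr1lo than in Gr1hi cells with beads, and 2 higher and 18 lower without, the opposite direction to Igf2r itself. Of all genes, 11.8% were called higher and 14.6% lower with beads, and 10% and 13.6% without. The list medians were -0.53 and -0.34, against -0.03 and -0.07 over all genes. Those with the smallest p were the alpha-galactosidase gene Gla (-3.31 ± 0.15 with beads), Gnptab, a subunit of the enzyme that makes the mannose 6-phosphate tag (-1.05), the retromer genes Vps29 (-0.91) and Vps26a (-0.83), the cathepsin gene Ctsl (-1.64), Plin3 (-1.04), the beta-glucuronidase gene Gusb (-0.97) and Gga2 (-0.70). Gla was below background in Gr1lo cells. Averaged over all probe sets of a gene, Gla was at -1.36, Ctsl at -0.70 and Vps29 at -0.56 with beads, and all 3 stayed called.

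Of 33 receptor-proximal adaptors and inhibitors, 8 were higher and 7 lower in Gr1lo than in Gr1hi cells with beads. Without beads 7 were higher and 4 lower. The list medians were 0.02 with beads and 0.04 without. For this list and the next, the shares of all genes were 11.8% higher and 14.6% lower with beads. Without beads they were 10% and 13.6%. The adaptors Dok3 (1.04), Dok1 (0.95) and Crk (0.66), the phosphatases Ptpn11 (0.97) and Ptpn2 (0.58) and the cytokine-induced inhibitor Socs3 (1.34) were higher with beads, and Gab1 (-1.22) and Ptpra (-0.87) lower. Averaged over all probe sets of a gene, Ptpn11 was at 0.41 and Ptpra at -0.48 with beads, both still called, and Ptpn2 was at -0.04. Of 37 genes of PI3K, AKT, FOXO and mTOR, 11 were higher and 2 lower with beads and 9 higher and 3 lower without, with medians of 0.11 and 0.12. The AKT phosphatase gene Phlpp1 (2.12), the kinase gene Sgk1 (1.79), the PI3K adaptor genes Pik3ap1 (1.69) and Pik3r5 (0.80), Foxo3 (0.48) and Mlst8 (0.36) were higher with beads, and Bad (-0.49) lower, while Pik3r2 was lower without beads (-0.56). Phlpp1 was below background in Gr1hi cells (6.88 with beads, 6.62 without), and Gab1 in Gr1lo cells with beads (6.95). Averaged over its probe sets, Mlst8 was at 0.23 with beads and lost its call (limma adjusted p = 0.0503).

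Of 23 FOXO-regulated genes other than Insr, 11 were higher and 1 lower with beads, and 7 higher and 1 lower without. Their medians were 0.34 and 0.13. The shares of all genes were again 11.8% higher and 14.6% lower with beads, and 10% and 13.6% without. Bcl6 (2.33), Klf4 (1.59), Cdkn1b (1.38), Sesn3 (0.90), Klf2 (0.88), Gadd45a (0.57), Cat (0.47) and Txnip (0.42) had the smallest p. All were higher in Gr1lo cells with beads. Of them, Gadd45a was below background in every group and Sesn3 in both Gr1hi groups. In the growth hormone axis, which controls Igf1 in liver, Stat5b was higher (0.79 with beads, 0.60 without), as was Jak2 (0.46 and 0.47). No other of 6 genes was called. The growth hormone receptor gene Ghr was below background on every array, at 4.57 to 5.33, and Prlr was not measured. Of the ligands, binding proteins and proteases, Ctsd (-1.19), Furin (-0.55), Adam9 (-0.46) and the insulin-degrading enzyme gene Ide (-0.43) were lower in Gr1lo than in Gr1hi cells with beads and none was higher; Ctsd and Ide were also lower without.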

How the data were processed

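Log2 values of 45101 probe sets on 8 Affymetrix GeneChip arrays were used as the authors deposited them. Per the submitters' processing notes it was made by RMA and compared with limma; no version is given in the sources used here. RMA forces arrays to a common distribution, and summarised probes can be dim, so low levels understate fold changes.

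Of the probe sets, 34945 had 1 symbol in the platform annotation, 932 several and 9160 none, and 64 were controls; the last 3 kinds were left out of tests. By Entrez number 34741 matched RefSeq symbols of GRCm38.p6, with 0 changes. All 18193 genes and 8 arrays entered 1 linear model with a mean per group (lmFit and eBayes, limma 3.58.1, R 4.3.3; 4 residual and 4.48 prior degrees of freedom), two-sided, with Benjamini-Hochberg correction and a call at an adjusted p under 0.05. The fit was tested on simulated data. SE is the moderated standard error. Differences are with minus without beads, or Gr1lo minus Gr1hi.

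The members and lists were chosen with earlier results of these data known. Named list genes were the called ones, or the 8 with the smallest p where more were called. Similar genes were the 5 with the highest Pearson correlation. Candidates were genes with a group mean above background whose group means varied by at least 1 log2 unit. Alternatives were probe set averaging, testing every probe set, a background filter, compared arrays alone, trend and robust eBayes, array weights, median centring, cyclic loess, a replicate block and leaving out each array. Python 3.11.15, pandas 2.3.3 and matplotlib 3.10.9 made the tables and plots. Markers of 13 cell types were tabulated; those beside a result are given there.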

Additional observations from a re-analysis of the deposited data

Results flagged for a closer look

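Igf1 lay in opposite directions between the subsets according to bead state. Gr1lo minus Gr1hi was 0.43 among bead-carrying cells and -0.23 among bead-free cells, the latter with an interval of -0.55 to 0.09. Neither was called. The arrays did not overlap in either comparison, as for 61.4% of all genes with beads and 62% without. For the other 3 probe sets of Igf1 they overlapped in both. The difference between 0.43 and -0.23, which is 0.66, was tested and was not called (limma adjusted p = 0.558). Both means of bead-free cells were below background.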

How the results depend on the processing

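Each of the 30 differences of the 6 genes was recomputed under up to 16 settings. In all, 424 values kept their direction and side of the threshold, 7 lost a call, 13 gained one, 30 uncalled values changed sign, and no called value did. Igf2r was called under all 16 settings in both subset comparisons (0.86 to 1.45 without beads, 0.53 to 0.80 with). The members called with beads in Gr1hi cells numbered 0 with probe sets averaged and 2 with trend and robust eBayes, array weights or the replicate block, the second being Igf1 (adjusted p 0.0312, 0.0480 and 0.0321). Leaving out 1 array gave 0 to 1 there, 0 to 1 in Gr1lo cells, 1 to 2 between bead-free and 2 to 3 between bead-carrying subsets; the third was Igf1 or Insr. Between bead-carrying subsets averaging gave 1, and Igf1 was called in 8 of 16 settings. Replicate numbers were not taken as pairs, since no label ties them to a mouse or day and not every correlation of same-numbered deviations was over 0.1: they were 0.36 and 0.27 within subsets and -0.02 to 0.09 across them. Pairing within subsets was not settled.

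Over the whole table, calls with beads in Gr1hi cells were 45, against 121 with trend and robust eBayes, 104 with array weights and 0 to 58 with 1 array left out. In Gr1lo cells they were 41, against 127 with trend and robust eBayes, 12 with the compared arrays alone and 17 to 354 with 1 array left out, the last without array 2 of the bead-free Gr1lo group. The difference between subsets called 8, against 5 with averaging or the background filter, 17 with trend and robust eBayes and 1 to 167 with 1 array left out. Between bead-free subsets 4288 were called, against 2631 to 4125 with 1 array left out. Of 1151 recomputed values of the named list genes, 1119 held, 31 lost their call and 1 changed sign, Ptpn2 between bead-carrying subsets (-0.0371 with probe sets averaged). The causes were not tested. With 2 arrays a group and Igf1 and Igf2r near background, small differences could not be resolved.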
